A study of Mus musculus with 12 samples.

Results

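The receptors through which neutrophils sense chemoattractants were followed as transcripts in tumor-associated neutrophils (TANs) and bone marrow (BM) neutrophils. They are 8 genes, namely Cxcr2, Cxcr4, Ccr1, Ccrl2, Fpr1, Fpr2, Ltb4r1 and Ptafr, chosen by name and found in the count tables through their Ensembl identifiers, 8 of 55335 genes listed. The question was how their levels differed between tumor and marrow, and in TANs that lack Cxcr2. Neutrophils were sorted from mammary tumors of 4 PyMT mice and of 4 PyMT-Cxcr2-/- mice and from the BM of 4 WT mice, with 1 RNA-seq library per mouse, 12 libraries in all. PyMT TANs came from FVB mice that carry the polyoma middle T transgene, whose mouse mammary tumor virus promoter drives it in mammary epithelium. PyMT-Cxcr2-/- TANs came from FVB mice that carry the same transgene and lack Cxcr2 in every cell type, so that tumor cells and host also lacked it. WT BM neutrophils came from FVB mice with neither allele. All mice were 10 weeks old and were kept in the same type of specific and opportunistic pathogen free housing. Tumors were minced and digested with a dissociation kit, while marrow cells were spun out of femurs and tibias. The BM mice also had no tumor, so tissue, tumor, transgene and cell preparation cannot be told apart in a comparison of TANs with BM. The sort took CD45+ CD11b+ Ly6G+ cells without the macrophage antigen F4/80, after a CD11b enrichment.

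Chemoattractant receptors are G protein-coupled receptors that turn a gradient of a chemokine, peptide or lipid into directed movement through Gi proteins, phosphoinositide 3-kinase and Rac. In neutrophils, Cxcr2 binds ELR+ CXC chemokines and promotes release from the marrow, while Cxcr4 binds Cxcl12 and retains the cells there. Ccr1 binds inflammatory CC chemokines. Ccrl2 is an atypical receptor that binds chemerin without signaling through G proteins. Fpr1 and Fpr2 recognize formylated bacterial and mitochondrial peptides. Ltb4r1 is the high-affinity receptor of leukotriene B4, and Ptafr is the receptor of platelet-activating factor.

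Each library had 25032704 to 51351569 counts on genes. Levels are given as CPM, the counts of a gene relative to 1e6 counts on genes of its library after scaling with TMM factors. Before this scaling 3 counts corresponded to 0.0584 to 0.120 CPM, and the receptors described here had between 379 and 143502 counts in a library. Neutrophil markers were present in every library, but their summed CPM was 73960 to 98303 in BM, 10413 to 16558 in PyMT TANs and 17626 to 28807 in PyMT-Cxcr2-/- TANs. Markers of immature neutrophils, led by the granule genes Ltf, Ngp and Camp, summed to 28707 to 45609 CPM in BM, 410 to 692 in PyMT TANs and 1879 to 6269 in PyMT-Cxcr2-/- TANs. Macrophage markers summed to 221 to 314 CPM in BM, 2126 to 5186 in PyMT TANs and 2300 to 4854 in PyMT-Cxcr2-/- TANs. By the thresholds given below, 9 of 9 were higher in both TAN groups than in BM, as were 30.1% and 34.4% of all genes tested. Epithelial markers reached 36.8 to 395 CPM in PyMT TANs and 65.8 to 258 in PyMT-Cxcr2-/- TANs but no more than 0.229 in BM, where 4 of the 7 (Krt8, Krt14, Krt5 and Csn3) were at 0.

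The promoter sequences of 5 of the receptors are printed to show the starts of the gene that was inactivated, of its counterpart in marrow retention, of the receptor that rose most in TANs and of the formyl peptide receptor pair that fell. Each runs from 250 to 11 bases before the RefSeq start site, 5′ to 3′ on the strand of the gene in the GRCm38.p6 build, and capitals mark a match to one of the motifs searched. The windows are chr1:74153744-74153983 (+) for Cxcr2, chr1:128592310-128592549 (-) for Cxcr4, chr9:111057529-111057768 (-) for the most upstream of 3 starts of Ccrl2, chr17:17883950-17884189 (-) for Fpr1 and chr17:17887574-17887813 (+) for Fpr2.
Cxcr2: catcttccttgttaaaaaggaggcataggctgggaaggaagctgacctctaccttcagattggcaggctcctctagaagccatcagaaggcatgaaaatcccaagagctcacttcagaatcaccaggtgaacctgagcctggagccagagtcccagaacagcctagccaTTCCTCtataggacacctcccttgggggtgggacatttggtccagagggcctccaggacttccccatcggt
Cxcr4: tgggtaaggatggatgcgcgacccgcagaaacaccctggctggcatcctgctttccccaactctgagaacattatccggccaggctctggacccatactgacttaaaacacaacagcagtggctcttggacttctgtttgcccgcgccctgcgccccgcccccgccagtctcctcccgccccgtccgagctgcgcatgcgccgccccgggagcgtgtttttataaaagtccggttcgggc
Ccrl2: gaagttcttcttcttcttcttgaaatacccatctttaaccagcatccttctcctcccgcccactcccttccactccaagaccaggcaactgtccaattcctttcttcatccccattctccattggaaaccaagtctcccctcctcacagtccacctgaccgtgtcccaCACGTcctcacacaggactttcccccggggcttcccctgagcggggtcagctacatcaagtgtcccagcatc
Fpr1: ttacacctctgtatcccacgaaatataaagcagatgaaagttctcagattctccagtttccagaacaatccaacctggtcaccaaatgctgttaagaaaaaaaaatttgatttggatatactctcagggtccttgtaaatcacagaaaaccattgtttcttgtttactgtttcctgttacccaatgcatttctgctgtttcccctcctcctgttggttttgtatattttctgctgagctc
Fpr2: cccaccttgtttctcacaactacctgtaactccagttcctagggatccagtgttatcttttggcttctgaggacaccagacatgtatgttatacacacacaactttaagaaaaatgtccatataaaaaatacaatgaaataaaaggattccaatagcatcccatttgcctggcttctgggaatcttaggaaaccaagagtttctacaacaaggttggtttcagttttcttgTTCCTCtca

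The letters of 5 motifs were searched on both strands of this window for all 8 receptors. The hypoxia response core ACGTG was found in the Ccrl2 promoter, at -82 on the minus strand from the start printed, and in none of the other 7. It is present in 15.9% of the 32851 RefSeq promoter windows. The PU.1 core GAGGAA, which 22.3% of windows hold, was found once in each of the Cxcr2, Ccr1, Fpr2, Ltb4r1 and Ptafr promoters. The C/EBP palindrome TTGCNNAA, in 9.29% of windows, the AP-1 motif TGANTCA, in 6.58%, and the NF-kappaB motif, in 1.16%, matched none of the 8. Cxcr4 and Fpr1 had no match to any of the 5. The PU.1 core was thus present both in receptors that rose in TANs and in receptors that fell.

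In PyMT TANs compared with BM, Ccrl2, Ccr1 and Ptafr were higher, while Fpr1, Fpr2, Ltb4r1 and Cxcr2 were lower and Cxcr4 was not called. A gene was called at a Benjamini-Hochberg adjusted p under 0.05 over all genes and a fold change of 1.5 or more, in the edgeR quasi-likelihood test. Thus 3 of the 8 receptors were called higher, where 30.1% of the 17153 genes tested were, and 4 were called lower, where 23.2% were. CPM of the groups did not overlap for 7 of the 8, against 58.3% of all genes. Calls were thus frequent among all genes too, and the counts of receptors are to be read against these shares. With scaling to library totals in place of TMM, 6674 genes were called higher and 2488 lower, in place of 5160 and 3988. In bulk samples, fewer cells of a type and less RNA per cell cannot be told apart. In PyMT-Cxcr2-/- TANs compared with BM, 3 receptors were called higher, where 34.4% of 17732 genes were, and 5 lower, where 25.1% were. None of the 8 overlapped between these groups, against 65.9% of all genes. Both comparisons use the same 4 BM mice, so they are not independent of each other.

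**Figure D1:**
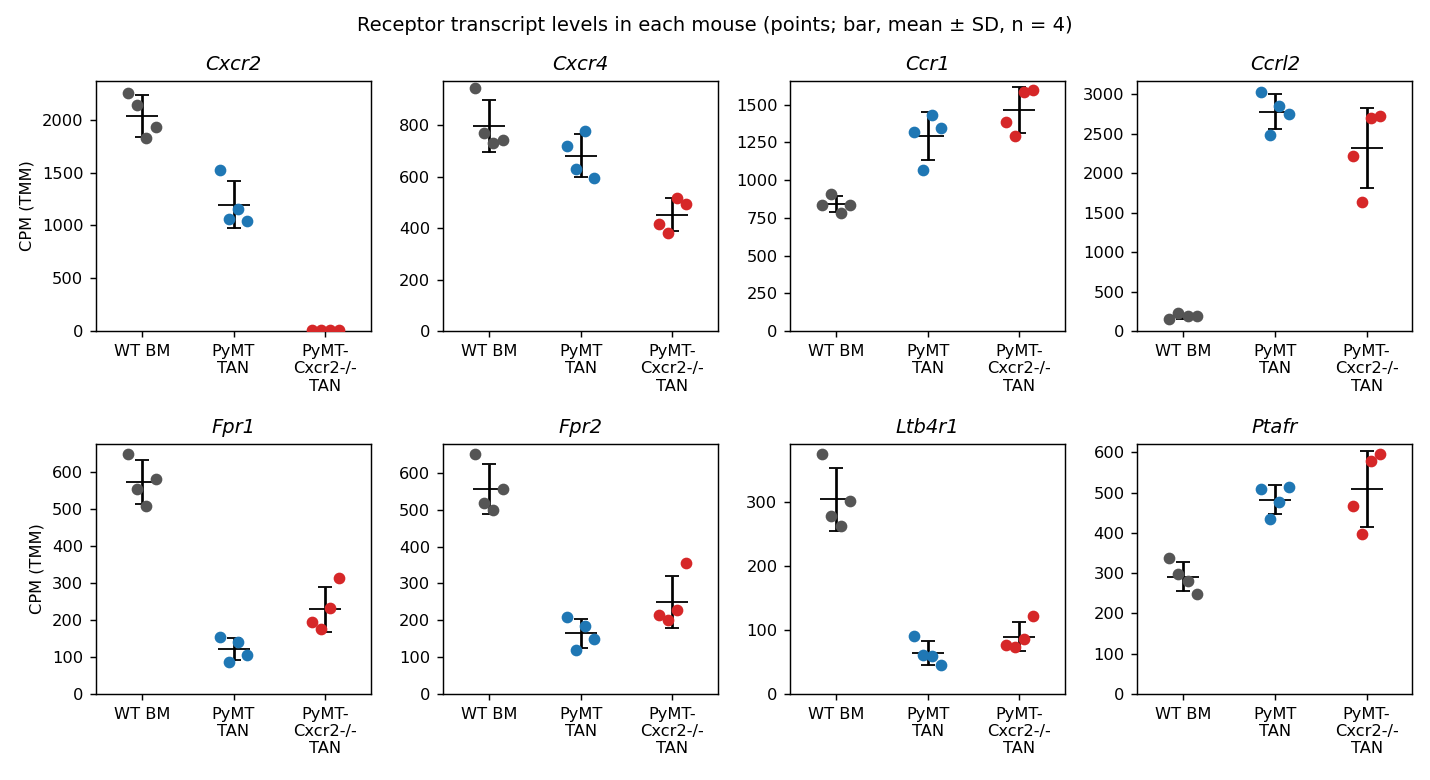
CPM (TMM-scaled, linear axis from 0) of each receptor in each mouse, by group. Points are mice, horizontal bars are means and error bars are SD over 4 mice; Ccrl2 sits at 150 to 226 CPM in BM and at 1636 to 3024 in the 8 TAN libraries, and Cxcr2 sits at 8.82 to 10.0 CPM in PyMT-Cxcr2-/- TANs.

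Cxcr2 was the highest of the 8 receptors per length in BM and its loss marked the PyMT-Cxcr2-/- libraries. The 4 BM mice had 1824, 1927, 2138 and 2253 CPM of Cxcr2, and the 4 PyMT mice had 1043, 1061, 1157 and 1523. The lowest BM mouse was above the highest PyMT mouse. In PyMT TANs Cxcr2 (chr1:74153989-74161246, + strand, mm10) was lower than in BM by -0.70 on the log2 scale (SE 0.15, adjusted p = 0.0017), and the TANs kept a mean of 1196 ± 224 CPM (SD, n = 4) against 2035 ± 195. With scaling to library totals in place of TMM this difference was -0.26 and was not called (adjusted p = 0.077). In PyMT-Cxcr2-/- TANs the 4 mice had 8.82, 8.98, 9.72 and 10.0 CPM, or 379 to 485 counts, so that the targeted gene was low in every library with this label. The log2 difference from PyMT TANs was -7.00 (SE 0.19, adjusted p = 5.2e-09).

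Cxcr4 (chr1:128588199-128592293, - strand), which holds neutrophils in the marrow niche, was not called between PyMT TANs and BM. Its CPM in BM were 731, 742, 772 and 945, and in PyMT TANs they were 595, 631, 722 and 779, so the groups overlapped. The log2 difference was -0.16, with a 95% interval from -0.46 to 0.14 (adjusted p = 0.34). It was of the other sign, 0.29 with adjusted p = 0.038, when libraries were scaled to their totals, and 0.0068 (adjusted p = 0.98) after an adjustment for GC content and length. The 4 PyMT-Cxcr2-/- mice had 383, 417, 494 and 518 CPM, all below the lowest mouse of both other groups. Against BM this was a log2 difference of -0.68 (SE 0.13, adjusted p = 0.00034), which was smaller than the 1.5-fold threshold without PyMT-Cxcr2-/- replicate 2 (-0.58, adjusted p = 0.001), with scaling to library totals (-0.50) and with the GC and length adjustment (-0.57).

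The balance of the marrow retention and release receptors was read as the ratio of Cxcr4 to Cxcr2 counts within a library, which needs no scaling between libraries. The ratios were 0.361, 0.385, 0.401 and 0.419 in BM and 0.474, 0.571, 0.595 and 0.673 in PyMT TANs. Every PyMT library was above every BM library. On the log2 scale the means were -1.35 ± 0.092 in BM and -0.80 ± 0.21 in PyMT TANs (SD, n = 4), a difference of 0.55 or 1.47-fold. The two-sided exact permutation test over mice gave p = 0.0286, the smallest that 4 against 4 mice allow. Within PyMT TANs the mouse with the lowest macrophage sum, 2126 CPM, had the lowest ratio, 0.474. The mouse with the highest sum, 5186 CPM, had the highest ratio, 0.673. In BM the highest sum, 314 CPM, went with the highest ratio, 0.419, but the lowest sum, 221 CPM, went with 0.385, not the lowest ratio. The part of macrophages in the ratio was not tested, so it is a ratio of the bulk sample. In PyMT-Cxcr2-/- TANs the ratio was 39.4 to 55.0, since the denominator was the inactivated gene, and no comparison was made with it.

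**Figure D2:**
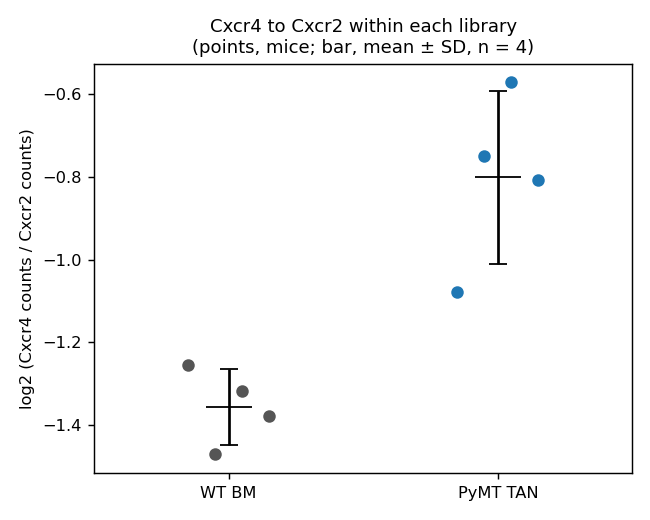
Log2 ratio of Cxcr4 counts to Cxcr2 counts in each WT BM and PyMT TAN library (axis not from 0). Points are mice and bars are mean ± SD; the BM mice lie between -1.47 and -1.25 and the PyMT mice between -1.08 and -0.57.

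Among the receptors of CC chemokines and chemerin, Ccrl2 had the largest difference of the 8 between TANs and BM, apart from the inactivated Cxcr2. Ccrl2 (chr9:111054486-111057519, - strand), the atypical receptor that presents chemerin at the cell surface, had 150, 196, 197 and 226 CPM in BM. In PyMT TANs the 4 mice had 2487, 2755, 2854 and 3024 CPM, and in PyMT-Cxcr2-/- TANs they had 1636, 2215, 2699 and 2720. No TAN library was near the BM range. The rise over BM was 15.2-fold in PyMT TANs (log2 difference 3.92, SE 0.16, adjusted p = 2.9e-08) and 13.2-fold in PyMT-Cxcr2-/- TANs (3.73, SE 0.19, adjusted p = 4.2e-09). Between the TAN groups the difference was -0.27, with a 95% interval from -0.65 to 0.11.

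Ccr1 (chr9:123962124-123968692, - strand), which binds Ccl3, Ccl5 and related inflammatory chemokines, rose less. It had 781, 836, 836 and 910 CPM in BM, 1066, 1315, 1345 and 1434 in PyMT TANs and 1290, 1383, 1582 and 1597 in PyMT-Cxcr2-/- TANs. All 8 TAN libraries were above all BM libraries, and the TAN groups overlapped. The rise over BM was 1.61-fold in PyMT TANs (log2 difference 0.69, SE 0.13, adjusted p = 0.00078) and 1.91-fold in PyMT-Cxcr2-/- TANs (0.93, SE 0.12, adjusted p = 8.6e-06). Macrophages also express Ccr1, and the summed macrophage markers given above rose in the same libraries, from 221 to 314 CPM in BM to 2126 to 5186 in PyMT TANs. Within PyMT-Cxcr2-/- TANs, the mouse with the highest macrophage sum, 4854 CPM, had the lowest Ccr1 and Ccrl2 of its group, 1290 and 1636 CPM, and the mouse with the lowest macrophage sum, 2300 CPM, had the highest, 1597 and 2720 CPM. Within PyMT TANs the receptors went different ways, since the mouse with the highest macrophage sum, 5186 CPM, had the highest Ccr1, 1434 CPM, while the mouse with the lowest sum, 2126 CPM, had the highest Ccrl2, 3024 CPM. The part of macrophages in these rises was not tested.

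The formyl peptide receptors Fpr1 and Fpr2 fell together in TANs. They are head-to-head neighbors on chromosome 17, Fpr1 at chr17:17876471-17883940 on the - strand and Fpr2 at chr17:17887824-17893952 on the + strand, with 3884 bases between their starts. Fpr1 had 508, 552, 580 and 647 CPM in BM, 86.8, 104, 141 and 153 in PyMT TANs and 175, 193, 232 and 312 in PyMT-Cxcr2-/- TANs. The 3 groups did not overlap, and PyMT TANs were the lowest. Against BM the log2 difference was -2.17 in PyMT TANs (SE 0.18, adjusted p = 2.3e-06) and -1.19 in PyMT-Cxcr2-/- TANs (SE 0.16, adjusted p = 1.7e-05).

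Fpr2, which also binds annexin and amyloid ligands, had 498, 519, 556 and 652 CPM in BM. It had 118, 148, 185 and 207 CPM in PyMT TANs and 201, 214, 228 and 355 in PyMT-Cxcr2-/- TANs. The BM range stood apart, while the TAN groups overlapped narrowly. The log2 difference from BM was -1.69 in PyMT TANs (SE 0.18, adjusted p = 1.2e-05) and -1.02 in PyMT-Cxcr2-/- TANs (SE 0.17, adjusted p = 9.8e-05). Exons of Fpr2 overlap those of Fpr3 on the same strand in GENCODE M21, so reads of the shared part may be missing and its level is uncertain. The other 7 receptors share exons with no other gene. Over the 12 libraries Fpr1 and Fpr2 had a Pearson correlation of 0.99 in log2 CPM, given as a description of libraries that fall into 3 groups.

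The receptors of lipid mediators moved in opposite directions. Ltb4r1 (chr14:55765962-55768494, + strand), through which leukotriene B4 relays recruitment between neutrophils, had 262, 278, 303 and 375 CPM in BM. It had 45.0, 60.2, 61.0 and 90.2 CPM in PyMT TANs and 73.8, 76.2, 85.7 and 122 in PyMT-Cxcr2-/- TANs. The log2 difference from BM was -2.19 in PyMT TANs (SE 0.20, adjusted p = 4.8e-06) and -1.63 in PyMT-Cxcr2-/- TANs (SE 0.16, adjusted p = 1.3e-06). Ptafr (chr4:132564067-132582683, + strand) had 249, 280, 299 and 338 CPM in BM, 434, 476, 508 and 513 in PyMT TANs and 397, 466, 579 and 595 in PyMT-Cxcr2-/- TANs. All TAN libraries were above all BM libraries, by 1.74-fold in PyMT TANs (log2 difference 0.80, SE 0.13, adjusted p = 0.00025) and 1.92-fold in PyMT-Cxcr2-/- TANs (0.94, SE 0.14, adjusted p = 4.7e-05). Macrophages express Ptafr as well, and of the 4 PyMT-Cxcr2-/- mice the one with the highest macrophage sum had the lowest Ptafr, 397 CPM, and the one with the lowest sum had the highest, 595 CPM. In PyMT TANs the highest Ptafr, 513 CPM, was in the mouse with a macrophage sum of 3519 CPM, which was neither the highest nor the lowest. Their part in the rise of Ptafr was not tested.

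**Figure D3:**
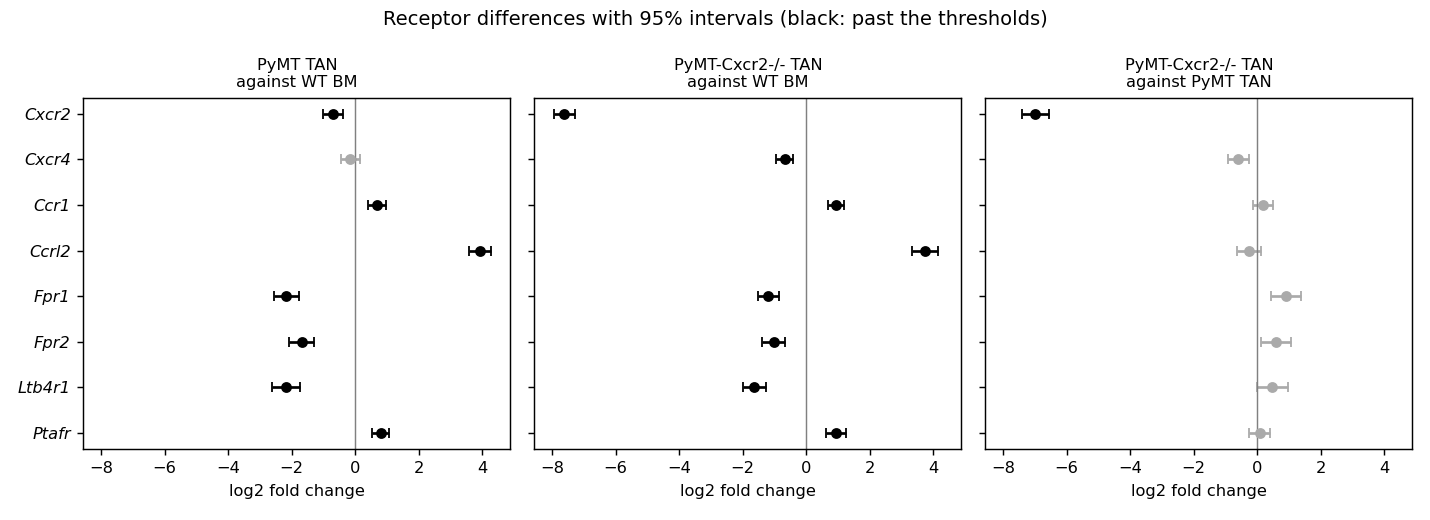
Log2 fold change of each receptor in the 3 comparisons, with 95% intervals from the edgeR fit of the 2 groups. Black points passed both thresholds and grey points did not; between the TAN groups, Cxcr2 at -7.00 is the only black point.

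Between the TAN groups, Cxcr2 itself was the only one of the 8 receptors called. With it, 1 of the 8 was called lower and 0 higher by edgeR, where 0.596% and 1.38% of the 18463 genes tested were. Of the 8, 4 had an unadjusted p under 0.05, for which no share over all genes was taken. With scaling to library totals the calls over all genes were 206 higher and 391 lower, in place of 255 and 110. CPM did not overlap for 3 of the 8, against 12% of all genes. These were Cxcr2, Cxcr4 and Fpr1. Cxcr4 was lower in all 4 PyMT-Cxcr2-/- mice than in any PyMT mouse, with a log2 difference of -0.59 and a 95% interval from -0.92 to -0.27 (adjusted p = 0.069). Fpr1 was higher in all 4, with a difference of 0.91 and an interval from 0.43 to 1.39 (adjusted p = 0.063). DESeq2 called Fpr1 (0.97, adjusted p = 0.0041), as did edgeR without PyMT replicate 1 (1.08, adjusted p = 0.035). With the 12 libraries in one fit, both Cxcr4 (-0.59, adjusted p = 0.023) and Fpr1 (0.91, adjusted p = 0.014) were called.

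The other receptors had intervals that bound how far the TAN groups could differ. For Fpr2 the log2 difference was 0.60, from 0.12 to 1.08 (adjusted p = 0.20). For Ltb4r1 it was 0.48, from -0.012 to 0.97 (adjusted p = 0.35). For Ccr1 it was 0.18, from -0.14 to 0.49 (adjusted p = 0.66). For Ptafr it was 0.073, from -0.26 to 0.41 (adjusted p = 0.91). These intervals do not show that the groups were alike. Of the 4 receptors that were lower in both TAN groups than in BM, Cxcr2 was lowest in PyMT-Cxcr2-/- TANs, where it was inactivated. Fpr1, Fpr2 and Ltb4r1 had means in PyMT-Cxcr2-/- TANs between those of PyMT TANs and BM. The summed immature neutrophil markers did too, and 3 of the 6 tested were called higher in PyMT-Cxcr2-/- TANs than in PyMT TANs, where 1.38% of all genes were. Of that list, Ltf, Ngp, Camp and Cebpe had means in between. Mpo, Prtn3, Elane and Ctsg did not. They were at 2.03, 1.60, 0.296 and 0.021 CPM in PyMT TANs and 0.763, 1.18, 0.282 and 0.013 in PyMT-Cxcr2-/- TANs. The summed neutrophil markers were between those of PyMT TANs and BM too. Of these, 4 of the 8 tested were called higher in PyMT-Cxcr2-/- TANs than in PyMT TANs and 1, Cxcr2, lower, where 1.38% and 0.596% of all genes were. PyMT-Cxcr2-/- replicate 4 had the highest sums of its group, 6269 CPM for immature neutrophil markers and 28807 CPM for neutrophil markers. This mouse also had the highest Fpr1, Fpr2 and Ltb4r1 of its group. Without this mouse the differences between the TAN groups were 0.74 for Fpr1, 0.40 for Fpr2 and 0.31 for Ltb4r1. The part of immature cells in the receptor values was not tested.

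Per kilobase of exon, which allows levels of different genes to be compared, the order of the receptors was different in BM and in TANs. In BM, Cxcr2 led with a mean of 668 CPM per kb, without overlap with the next. Cxcr4 at 441, Fpr1 at 432 and Fpr2 at 429 CPM per kb followed with overlapping ranges, and then Ccr1 at 297 and Ltb4r1 at 219, each apart from its neighbors. Ptafr at 80.1 and Ccrl2 at 74.0 CPM per kb were last and overlapped. In PyMT TANs, Ccrl2 led at 1070 CPM per kb, Ccr1 at 455, Cxcr2 at 392 and Cxcr4 at 377 overlapped in turn, Ptafr at 133, Fpr2 at 127 and Fpr1 at 91.5 did likewise, and Ltb4r1 was last at 46.0. In PyMT-Cxcr2-/- TANs, Ccrl2 at 892 and Ccr1 at 516 CPM per kb stood apart at the top. Cxcr4 at 251, Fpr2 at 193, Fpr1 at 172 and Ptafr at 140 overlapped in turn, and Ltb4r1 at 64.2 and Cxcr2 at 3.08 were last.

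The sum of the 8 receptors overlapped between the groups, while its makeup differed. It was 2639 ± 243 CPM per kb in BM, 2692 ± 289 in PyMT TANs and 2231 ± 401 in PyMT-Cxcr2-/- TANs (SD, n = 4), and the ranges of the 3 groups overlapped. Ccrl2 made up 2.84 ± 0.62% of this sum in BM, 39.8 ± 1.3% in PyMT TANs and 39.7 ± 2.7% in PyMT-Cxcr2-/- TANs. Cxcr2 made up 25.3 ± 0.89% in BM and 14.5 ± 1.6% in PyMT TANs. Fpr1 made up 16.4 ± 0.55% in BM and 3.36 ± 0.51% in PyMT TANs. These are descriptions of the differences already given, without a test of their own, and they are shares of transcripts, not of receptors at the cell surface.

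**Figure D4:**
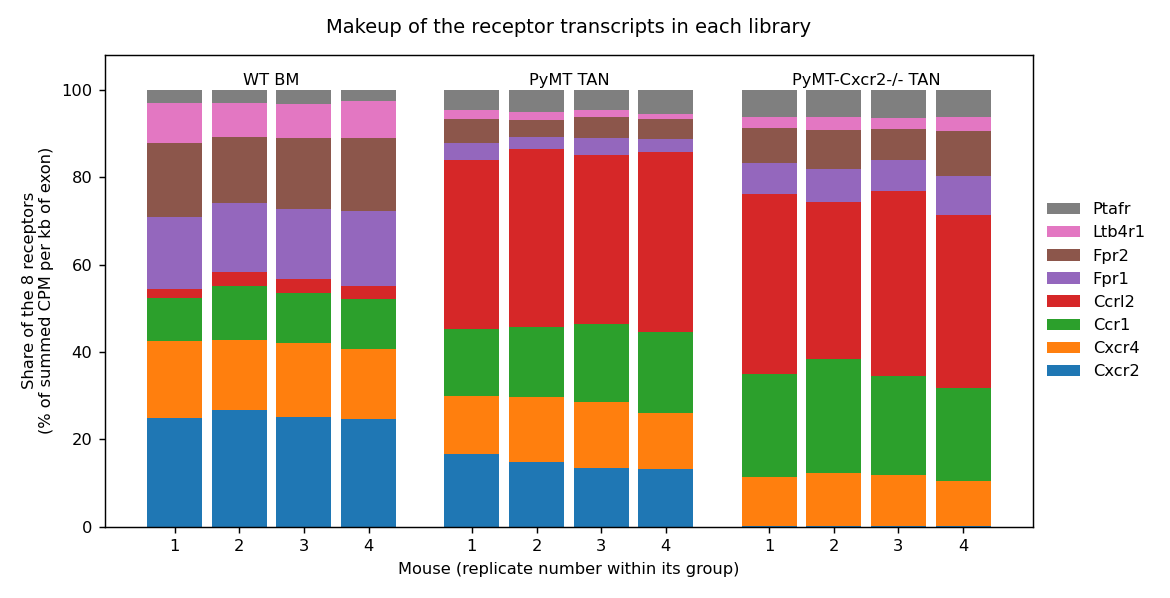
Share of each receptor in the summed CPM per kb of the 8 receptors, as stacked bars, for each library. Ccrl2 takes 1.94% to 3.30% in BM and 36.0% to 42.2% in the TAN libraries, and Cxcr2 takes 13.3% to 16.6% in PyMT TANs and no more than 0.182% in PyMT-Cxcr2-/- TANs.

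The genes whose log2 CPM followed each receptor most closely over the 12 libraries were taken among 7205 genes with a mean of at least 10 CPM, as a description of libraries that share group and depth. For Ccrl2 they were Ppp1r15a (Pearson r = 0.998), a stress-induced phosphatase subunit, Maff (0.997), a small Maf transcription factor, and Il1b (0.996), the inflammatory cytokine. For Fpr1 they were Nxn (0.997), Hsd17b11 (0.996) and Megf9 (0.995), and for Fpr2 they included Rbl2 (0.993) and again Nxn (0.990). For Ltb4r1 they were Ostf1 (0.996), Rgs19 (0.995) and Mapk7 (0.995). For Ccr1 they were Tlr2 (0.983), the sensor of bacterial lipoproteins, Prkx (0.978) and Litaf (0.976). For Ptafr, Gm37691 (0.980), Clec7a (0.963), the beta-glucan receptor, and AC114539.1 (0.961) came first. For Cxcr4 they were Clec5a (0.966), Api5 (0.960) and Uchl5 (0.938), and for Cxcr2 they were Mtf2 (0.977), Luc7l3 (0.972) and U2af1 (0.959), with the Cxcr2 values resting largely on the PyMT-Cxcr2-/- libraries.

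Other chemoattractant receptors were mostly higher in TANs than in BM. Of 34 listed, 33 were in the tables and 22 passed the count filter against BM in each TAN group. In PyMT TANs 14 were called higher and 2 lower, where 30.1% and 23.2% of all genes were, with a median log2 difference of 2.99 beside 0.087 over all genes. The numbers in PyMT-Cxcr2-/- TANs were 15 called higher and 3 lower, where 34.4% and 25.1% of all genes were, with a median of 2.49 beside 0.086. Since receptors absent from BM passed the filter only through TANs, these counts are a description. Among them was Cx3cr1, the fractalkine receptor of monocytes and macrophages, at 207 CPM in PyMT TANs and 1.59 in BM. Cmklr1, the signaling receptor of chemerin, was at 32.9 CPM in PyMT TANs and 0.110 in BM. C3ar1, the complement C3a receptor, was at 102 and 2.14 CPM. In PyMT-Cxcr2-/- TANs, Cx3cr1 was at 209 CPM, Cmklr1 at 38.5 and C3ar1 at 106. Cx3cr1 and C3ar1 rose in both comparisons (log2 differences of 5.64 to 7.18, adjusted p between 1.4e-08 and 3.1e-07).

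Receptors of this list that fell were few. C5ar2, a non-signaling receptor of complement C5a, was at 193 CPM in BM, 112 in PyMT TANs and 110 in PyMT-Cxcr2-/- TANs (log2 differences of -0.72 and -0.67, adjusted p = 0.0037 and 8.4e-05). Ackr4, an atypical scavenger of homeostatic CC chemokines, was at 0.354 and 0.443 CPM against 3.08, and Ltb4r2, the low-affinity leukotriene B4 receptor, was called in PyMT-Cxcr2-/- TANs, where it was at 1.36 CPM against 2.72 (-0.86, adjusted p = 0.019). Ackr4 exons overlap Acad11 on the opposite strand, C5ar2 exons overlap Gm26473 on the same strand and Cx3cr1 exons overlap Gm33858 on the opposite strand, so these counts are uncertain. Cx3cr1 and Ccr2 also belong to the monocyte markers, Ccr7 to the dendritic cell markers and Ccr3 to the eosinophil markers. Macrophages express Cx3cr1, Cmklr1 and C3ar1, and the macrophage markers reached 2126 to 5186 CPM in PyMT TANs against 221 to 314 in BM. Their part in these rises was not tested. Between the TAN groups, 0 of the 25 receptors tested were called by edgeR, where 1.38% of all genes were called higher and 0.596% lower. Of the 25, 1 had an unadjusted p under 0.05, for which no share over all genes was taken. DESeq2 called 1, where it called 683 higher and 351 lower of 32315 genes. The receptor called by DESeq2 was Cxcr1, the closest relative of Cxcr2, named here after its values were seen. It was at 19.2 to 38.9 CPM in PyMT TANs and 9.87 to 15.8 in PyMT-Cxcr2-/- TANs (log2 difference -1.03, adjusted p = 0.057 by edgeR). Cxcr1 (chr1:74191785-74194631, - strand) lies close to the inactivated Cxcr2 (chr1:74153989-74161246). An effect of the altered locus on Cxcr1 was not tested.

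The genes that carry and end the signal of these receptors were mostly lower in TANs. Of 39 G protein, kinase, arrestin and regulator genes listed, all 39 were tested against BM. In PyMT TANs 4 were called higher and 27 lower, where 30.1% and 23.2% of all genes were, with a median log2 difference of -1.07 beside 0.087 over all genes. The numbers in PyMT-Cxcr2-/- TANs were 4 higher and 19 lower, where 34.4% and 25.1% of all genes were, with a median of -0.56 beside 0.086. Among regulators of G protein signaling, which shorten the response of Gi-coupled receptors, Rgs1 rose from 8.49 CPM in BM to 516 in PyMT TANs and 348 in PyMT-Cxcr2-/- TANs (log2 differences of 5.99 and 5.49, adjusted p = 6e-08 in both). Rgs18 fell from 146 CPM to 9.86 and 20.7 (-3.82, adjusted p = 1.1e-06, and -2.68, adjusted p = 2e-08). Rgs14 fell from 309 CPM to 60.8 and 86.5, and Rgs19 from 293 CPM to 68.2 and 89.2. Members of the same family thus moved in opposite directions, and these 4 kept their direction in both comparisons under all 11 alternatives and without each mouse.

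Other parts of the pathway were led by single genes. Plcb2, the phospholipase C of neutrophil chemoattractant signaling, fell from 356 CPM in BM to 80.5 in PyMT TANs (log2 difference -2.08, SE 0.19, adjusted p = 5.1e-06). Gng5, a G protein gamma subunit, fell from 78.7 CPM to 23.4 in PyMT-Cxcr2-/- TANs (-1.61, SE 0.13, adjusted p = 1.5e-07). Grk3, a kinase that desensitizes receptors, rose from 10.3 CPM to 23.8 and 28.2, and Gna13, a G protein alpha subunit, rose from 169 CPM to 323 and 251. Between the TAN groups 2 of 38 were called, both higher in PyMT-Cxcr2-/- TANs, where 1.38% of all genes were called higher and 0.596% lower. They were the gamma subunit Gng2 (54.2 against 29.8 CPM, log2 difference 0.86, adjusted p = 0.018) and the receptor kinase Grk5 (56.8 against 35.5 CPM, 0.67, adjusted p = 0.042). This count was 0 without PyMT replicate 2, PyMT-Cxcr2-/- replicate 3 or PyMT-Cxcr2-/- replicate 4, 1 without PyMT replicate 3, PyMT replicate 4 or PyMT-Cxcr2-/- replicate 1, 5 without PyMT replicate 1 and 6 with DESeq2. Calls over all genes moved as well, from 255 higher and 110 lower. In the fits with 0 they were 10 and 13, 58 and 25, and 68 and 28, in the order named. In the fits with 1 they were 148 and 100, 123 and 66, and 166 and 47. Without PyMT replicate 1 they were 427 and 86, and with DESeq2 683 and 351. Gng2 and Gna13 have exons that overlap antisense genes, which leaves both counts uncertain.

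Among ligands of the receptors and the enzymes that make lipid ligands, some genes were called higher and others lower. Of 24 listed, 23 were tested. In PyMT TANs 9 were called higher and 9 lower, where 30.1% and 23.2% of all genes were (median log2 difference -0.20 beside 0.087). The numbers in PyMT-Cxcr2-/- TANs were 10 higher and 8 lower, where 34.4% and 25.1% of all genes were (median -0.037 beside 0.086). Both medians of the list are the same with Ccl7 at its lower bound. Genes nearly absent from 1 group, such as Ccl7 from BM, passed the filter only through the other, so these counts are a description. The Cxcr2 ligand Cxcl3 rose from 2.92 CPM in BM to 82.3 in PyMT TANs and 46.5 in PyMT-Cxcr2-/- TANs (adjusted p = 3.3e-06 and 1.7e-07). Cxcl1, a further Cxcr2 ligand, was at 0.534 CPM in BM and at 46.9 and 25.6 in TANs, and the Fpr2 ligand Saa3 was at 0.0530 CPM in BM and at 61.4 and 28.0 in TANs. Over the 4 BM libraries Cxcl1 had 72 counts and Saa3 had 7, so these levels are given as a description, with no p. Ccl7, a ligand of Ccr1, had no count in BM and means of 8.02 and 6.18 CPM in TANs. Single mice had 1.88 to 16.9 CPM in PyMT TANs and 3.47 to 7.62 in PyMT-Cxcr2-/- TANs. With 3 counts per BM library as the limit, the TAN means were at least 90.8-fold and 70.0-fold higher. Macrophage and epithelial markers were also higher in TANs, and their part in these ligand values was not tested.

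Ligands and enzymes that fell included genes of granules and of leukotriene synthesis. Camp, the granule peptide that binds Fpr2 and is also on the immature neutrophil list, fell from 4854 CPM to 38.0 in PyMT TANs and 244 in PyMT-Cxcr2-/- TANs. Anxa1, a further Fpr ligand, fell from 6272 CPM to 674 and 1535, and Lta4h, which makes leukotriene B4, fell from 270 CPM to 50.5 and 66.1. Ppbp, a Cxcr2 ligand stored in platelets, fell from 3.21 CPM to 0.101 and 0.664. The adjusted p of Camp, Anxa1 and Lta4h against BM was between 5.2e-08 and 6e-06. Ppbp had only 17 counts summed over PyMT mice and 126 over PyMT-Cxcr2-/- mice, against 436 over BM mice. Its levels are therefore given as a description, with no p. Between the TAN groups 3 of 23 were called, where 1.38% of all genes were called higher and 0.596% lower. Camp (244 against 38.0 CPM, log2 difference 2.68, adjusted p = 0.029) and Anxa1 (1.18, adjusted p = 0.022) were higher in PyMT-Cxcr2-/- TANs, and the Ccr1 ligand Ccl3 was lower (95.4 against 187 CPM, -0.97, adjusted p = 0.03). This count was 0 without PyMT replicate 2 or PyMT replicate 3 and 1 without PyMT replicate 4 or PyMT-Cxcr2-/- replicate 3. Calls over all genes, 255 higher and 110 lower in the main fit, moved as well. In these fits they were 10 and 13, 148 and 100, 123 and 66, and 58 and 25, in the order named.

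**Figure D5:**
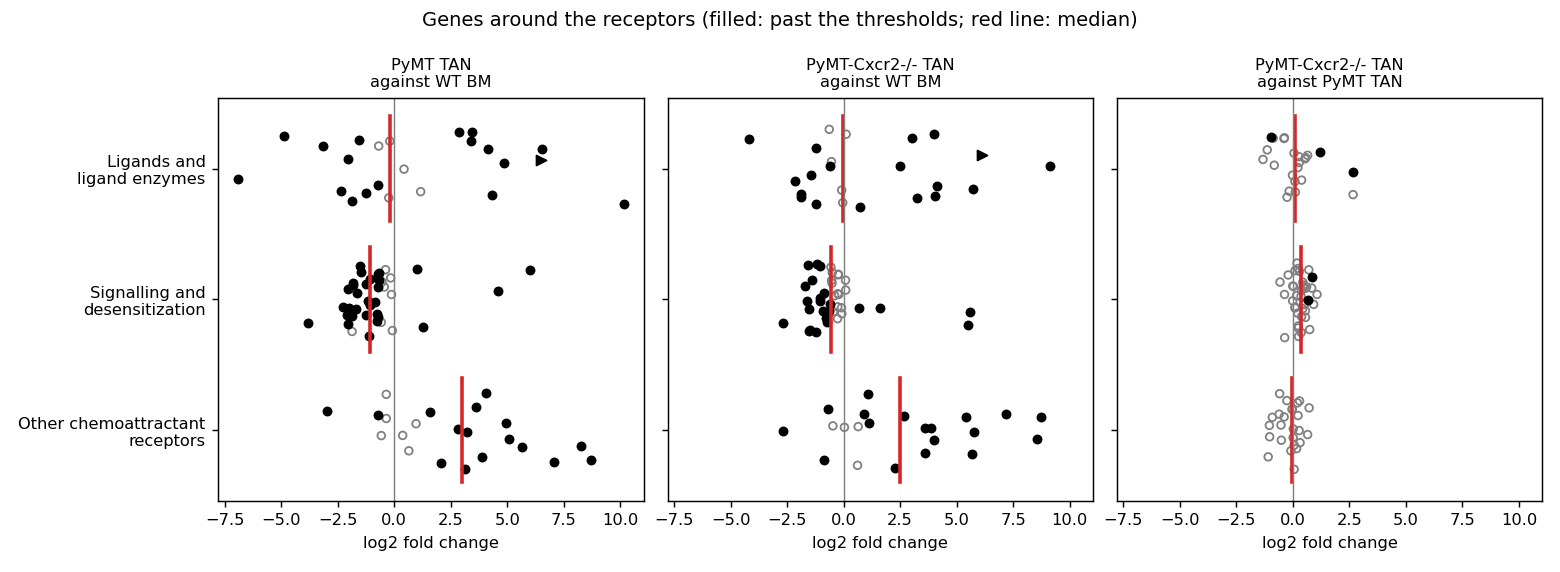
Log2 fold change of the other chemoattractant receptors, the signaling and desensitization genes and the ligands in the 3 comparisons. Each point is a gene, filled points passed both thresholds, triangles show Ccl7 at its lower bound, vertical jitter has no meaning and red lines are medians; the signaling genes have medians of -1.07 and -0.56 against BM and 0.36 between the TAN groups.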

How the data were processed

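Libraries of sorted neutrophils from 12 mice were analyzed, 4 per group, with groups and replicate numbers taken from the sample titles. Ribosomal RNA was depleted, directional libraries were read paired-end, and the authors used STAR on mm10 for alignment and HTSeq for counting. What they deposited are raw counts of each gene, with no normalization. The annotation release and the strand setting of the counting are not given in the sources used here. Of 55335 genes, 55154 matched a symbol in GENCODE M21. Between 46.3% and 60.5% of each library's total was on no gene and was left out.

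edgeR 4.0.16 in R 4.3.3 was fitted to the 2 groups of each comparison (filterByExpr, TMM, robust quasi-likelihood), with Benjamini-Hochberg adjustment over all genes tested. The study's own test, DESeq2 (version 1.42.0 here), was an alternative, with other scalings, filters, a replicate block, a GC and length adjustment with a spline of 5 degrees of freedom, and each mouse left out. The procedures were tested on simulated data. CPM per mouse used TMM factors over the 12 libraries, log2 CPM a prior count of 2, and CPM per kb the union exon length. The Cxcr4 to Cxcr2 ratio used an exact permutation test (70 arrangements). Replicate libraries differed by more than counting noise. p-values judge a difference against the spread between mice.

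The receptors, gene lists and motifs were chosen with earlier results of these data known. Genes of the other lists were named, up to 4 in each direction per comparison, for the largest change among called genes without overlap and with a mean of at least 1 CPM. Some genes that this rule or the likeness ranking reached are not reported here. Marker lists not given in the report had these ranges of summed CPM in BM, PyMT TANs and PyMT-Cxcr2-/- TANs: monocyte 655 to 864, 197 to 560 and 354 to 551, dendritic cell 4.29 to 6.71, 325 to 637 and 333 to 580, mast cell or basophil 31.9 to 45.4, 36.4 to 107 and 61.9 to 96.8, eosinophil 19.0 to 23.0, 104 to 182 and 50.7 to 68.5, T or NK cell 208 to 242, 10.0 to 20.6 and 22.3 to 41.1, B or plasma cell 9.69 to 16.2, 0.978 to 14.3 and 2.77 to 9.95, fibroblast or endothelial cell 11.5 to 14.0, 17.2 to 39.2 and 20.0 to 43.2, and erythroid cell 5.05 to 18.4, 1.10 to 108 and 1.30 to 2.41.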

Additional observations from a re-analysis of the deposited data

How the results depend on the processing

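Of the 8 receptors, Ccrl2, Fpr1, Fpr2, Ltb4r1, Ccr1 and Ptafr kept their direction and call against BM in both TAN groups under all 11 alternatives and without each mouse. Cxcr4 in PyMT-Cxcr2-/- TANs against BM kept its direction and was called under 8 of 11. Cxcr2 in PyMT TANs lost its call with library totals (-0.26, adjusted p = 0.077). Signs turned for Cxcr4 in PyMT TANs against BM with library totals (0.29) and with the GC and length adjustment (0.0068), and between the TAN groups for Ccr1 (-0.018) and Ptafr (-0.13) with library totals. None of these 4 had been called. Library totals moved the median of all genes in PyMT TANs against BM from 0.087 to 0.529 and between the TAN groups from -0.072 to -0.26, so changes are read relative to these medians. A 2-fold threshold gave 4 receptors in PyMT TANs and 5 in PyMT-Cxcr2-/- TANs against BM. No share over all genes was taken at 2-fold, so counts at that threshold are a description. Between the TAN groups, library totals, no count filter, a filter of CPM above 1 and DESeq2 gave 2 receptors and 1 other receptor each, the fit of 12 libraries 3 and 1, and the GC and length adjustment 1 other receptor. Signaling genes called there numbered 6 with no filter, with 12 libraries and with DESeq2, 1 with library totals and with the GC and length adjustment, and 0 at 2-fold. Calls over all genes there were 255 higher and 110 lower in the main fit. They were 471 and 123 with no filter, 579 and 307 with 12 libraries and 683 and 351 with DESeq2. With CPM above 1 they were 269 and 138, with library totals 206 and 391, and with the GC and length adjustment 149 and 64. The cause was not tested. Leaving out 1 mouse gave 1 to 2 of the 8 receptors, 0 to 1 other receptor, 0 to 5 signaling genes and 0 to 3 ligands between the TAN groups. Over all genes, these fits called 10 to 427 higher and 13 to 100 lower. The log2 ratio of Cxcr4 to Cxcr2 in PyMT TANs against BM was then from 0.476 to 0.645, for which the smallest possible exact p is 0.0571.

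Same-numbered mice are different animals, and their correlations averaged -0.0386, 0.0554 and -0.142 in the 3 comparisons. In PyMT-Cxcr2-/- TANs against BM, 3 libraries correlated best with their own number, against 0 in each of the other comparisons. With 4 libraries per group, these values cannot decide whether same-numbered libraries shared a batch. With the replicate block, 0 signaling genes and 0 ligands were called between the TAN groups, as with the block plus the GC and length adjustment, all calls there fell from 255 higher and 110 lower to 4 and 9, and the ratio difference of 0.553 had an exact sign-flip p of 0.125, the smallest possible.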

Other observations

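Among the chemoattractant receptors beside the 8, some that the naming rule did not reach are given here, chosen after their values were seen. Gpr35, a receptor of metabolites expressed in myeloid cells, had a mean of 340 ± 30 CPM in PyMT TANs and 283 ± 23 in PyMT-Cxcr2-/- TANs against 21.1 CPM in BM (n = 4 each), with log2 differences of 4.08 (adjusted p = 1.4e-08, edgeR) and 3.88 (adjusted p = 7e-11). Its lowest TAN mouse, at 266 CPM, was above the highest BM mouse, at 23.4. Cxcr1, which like Cxcr2 binds CXC chemokines, was higher in PyMT TANs than in BM (26.7 against 6.73 CPM, log2 difference 2.05, adjusted p = 2.2e-05) while Cxcr2 was lower there, and it was also higher in PyMT-Cxcr2-/- TANs (13.1 CPM, 1.10, adjusted p = 0.0001). Ccr2, the monocyte receptor of Ccl2, was at 4.47 CPM in BM and at 62.2 and 64.7 CPM in the TAN groups, while the summed monocyte markers, of which it is one, were at 655 to 864 CPM in BM, 197 to 560 in PyMT TANs and 354 to 551 in PyMT-Cxcr2-/- TANs. That sum was carried in BM by Ly6c2, which was at 742 CPM there and at 26.1 and 94.0 CPM in the TAN groups. The other 3 of the 4 monocyte markers, Ccr2 among them, were called higher in both TAN groups, where 30.1% and 34.4% of all genes were.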
